A study of Mus musculus with 12 samples.

Results

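The genes described here are the clustered replication-dependent histone genes of the mouse, taken as every gene whose symbol is H1, H2a, H2b, H3 or H4 followed by c and a number, or whose older symbol starts Hist1, Hist2, Hist3 or Hist4. RefSeq annotates 70 such genes on GRCm38.p6, and 64 of them had a row in the count table. Of these, 54 had at least 10 counts in at least 2 libraries and are described here, out of 17090 genes in the table. H3c4 reached 10 counts only from d5 on, H2ac7 only from d7 on, and H2bu2, H2bc22, H2ac12, H2ac11 and H2ac8 only at 0 h and 6 h. These 7 thus entered through the times where they are high and had to differ over time. The 54 comprised 5 H1, 14 H2A, 14 H2B, 10 H3 and 11 H4 genes.

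Histone H1 is the linker histone that binds DNA between nucleosomes, and H2A, H2B, H3 and H4 are the core histones around which DNA is wrapped. The clustered genes are transcribed mainly during S phase, when new DNA must be packaged, and most of their mRNAs end in a conserved stem-loop in place of a poly(A) tail. The stem-loop is bound by SLBP and is formed into a mature end by the U7 snRNP, while NPAT, a substrate of cyclin E and CDK2, drives transcription of the clusters. Cells that leave the cell cycle normally stop making these mRNAs and draw on variant histones such as H3.3, which are encoded by polyadenylated mRNAs outside the clusters.

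The cells were MTΔECad, mesenchymal breast cancer cells of the mouse kept as a line, and their RNA was sequenced along a protocol that turns them into adipocytes, at 0 h, 6 h, day 3 (d3), day 5 (d5), day 7 (d7) and day 10 (d10). Cells received BMP2 (200 ng/ml) alone for 3 days, BMP2 with rosiglitazone (2 µM), an agonist of PPARγ, for 4 days, and rosiglitazone alone for 3 days. There were 2 libraries for each of the 6 times, from 2 experiments that the labels call independent, with 12820802 to 17570366 counts per library. All libraries came from this 1 cell line, and no time-matched untreated cells were analysed here, so treatment and time in culture cannot be told apart. Levels are counts per 1000000 counts (CPM) scaled by TMM, values after ± are SD over 2 libraries, and a gene was called where edgeR's quasi-likelihood test gave a Benjamini-Hochberg adjusted p below 0.05 over all 12740 genes tested. In bulk RNA, fewer cells expressing a gene and less RNA per cell cannot be told apart.

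Markers were checked against the labelled material. Vim, a mesenchymal intermediate filament gene, stood at 7172 CPM at 0 h, Cdh1, which encodes E-cadherin, at 0.56 CPM, and the epithelial keratin genes Krt8 and Krt18 at 553 and 172 CPM. The 4 epithelial markers summed to 719 to 733 CPM at 0 h, 87.2 to 121 at d3 and 258 to 284 at d10. Fabp4, an adipocyte fatty acid carrier, went from 1.37 CPM at 0 h to 18825 CPM at d10. Summed over 3 leukocyte markers, levels lay between 1.92 and 8.47 CPM in the 12 libraries, and Ptprc, the leukocyte-defining gene, was at 0.00 CPM at 0 h and d10. The 4 endothelial markers summed to between 0.239 and 3.98 CPM.

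Of the 54 genes, 45 lie on chromosome 13, 6 on chromosome 3, 2 on chromosome 11 and 1 on chromosome 6. The 10 genes in the table that missed the rule on counts included H2ac18 and H2ac19, 2 neighbouring copies on chromosome 3 with 2 counts each over all libraries. H2af-ps2, older symbol Hist1h2al, is annotated as a transcribed pseudogene and was kept by the rule. Many of these genes are near copies of one another. For 22 of the 54, at least 50% of the 50-base stretches of their annotated transcripts also occurred in a transcript of another gene, and for H1f1, H1f5 and H2bc21 the share was 0%. How reads that match several copies were counted is not given in the sources used here, so levels of near-identical genes such as H2ac12, of which 90.7% was shared, are uncertain as levels of that locus.

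The histone stem-loop of 7 genes is given first, chosen because their mRNAs were abundant at d10, fell most steeply or rose, or, for H2ac20, because the gene is paired with H2bc21. It was searched in annotated GENCODE transcripts of GRCm38 after the stop codon, on the sense strand, as the 16-base pattern of GG, NN, CTT, N, T, N, AG, NN and CC in this order, where N is any base, with complementary stem arms. Capitals mark the 16-base core.
H1f2: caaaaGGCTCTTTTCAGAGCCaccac
H2ac7: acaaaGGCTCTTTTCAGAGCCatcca
H3c4: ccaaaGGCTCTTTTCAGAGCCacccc
H2ac20: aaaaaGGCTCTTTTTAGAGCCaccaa
H3c3: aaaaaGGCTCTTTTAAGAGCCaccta
H3c8: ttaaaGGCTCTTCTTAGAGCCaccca
H4c4: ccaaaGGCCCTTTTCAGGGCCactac
They lie at chr13:23739507-23739532 (H1f2, plus strand), chr13:23574890-23574915 (H2ac7, plus), chr13:23576239-23576264 (H3c4, plus), chr3:96220413-96220438 (H2ac20, minus), chr13:23745042-23745067 (H3c3, minus), chr13:23535884-23535909 (H3c8, plus) and chr13:23581945-23581970 (H4c4, plus). The core of H1f2, H2ac7 and H3c4 was the most common one and was found in 19 of the 54 genes, from H1, H2A, H2B and H3. The core of H4c4 was found in 5 genes, all H4.

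In all, 36 of the 54 genes had a stem-loop in an annotated transcript, 21 to 54 bases after the stop codon. It was found in 3 of 19903 other genes with a 3′ UTR long enough to search (0.0151%). The other genes were searched in the first 100 bases after the stop codon, and the histone genes in the whole annotated 3′ UTR. Another 15 had no match and fewer than 100 annotated bases after the stop codon. In 13 of them these were at most 2 bases, and H1f1 had 48 and H3c13 37. H2bc4 and H2bc21, both H2B genes, had longer annotated ends and no match anywhere in them. H2af-ps2 has no coding transcript. H2bc21 has an annotated mRNA of 2620 bases, and H2bc4 one of 1156 bases spliced from 2 exons. No match says only that these letters were not found in the annotated transcripts.

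The histone mRNAs were abundant at 0 h and 6 h and were at low levels from d3 on. Summed over the 54 genes, levels were 7799.8 and 7860.5 CPM at 0 h, 7924 and 7451 at 6 h, 723 and 774 at d3, 529 and 483 at d5, 558 and 569.7 at d7, and 684 and 642 at d10. The libraries of 0 h and 6 h overlapped, and every later library lay far below them. The mean was 9.56% of the 0 h mean at d3, 6.46% at d5, 7.20% at d7 and 8.47% at d10. As a share of all counts, without TMM factors, the histone genes took a mean of 0.832% at 0 h, 0.0856% at d3, 0.0526% at d5, 0.0511% at d7 and 0.0551% at d10, so the time of the lowest mean, d5 or d7, depended on the scaling.

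The sum was set against 30 genes of DNA replication, such as the replicative helicase and polymerase subunits. That list's sum went from 4316 ± 16.2 CPM at 0 h to 497 ± 32.2 at d3, 348 ± 2.92 at d5, 232 ± 6.88 at d7 and 205 ± 7.84 at d10. The ratio of the histone sum to the replication sum was 1.81 and 1.82 at 0 h, 1.82 and 1.69 at 6 h, 1.52 and 1.49 at d3, 1.53 and 1.38 at d5, 2.46 and 2.41 at d7, and 3.43 and 3.05 at d10. Both libraries of d7 and of d10 lay above all those of earlier times. A few genes weigh heavily on the later histone sums. H2bc4 and H1f2 gave 1.66% and 6.17% of the histone sum at 0 h, 21.8% and 23.4% at d7, and 15.9% and 23.0% at d10. The median log2 fold change from 0 h to d10 was -5.07 over the histone genes and -4.27 over the replication genes. No test was made on the sums, which add up genes chosen with results known.

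**Figure D1:**
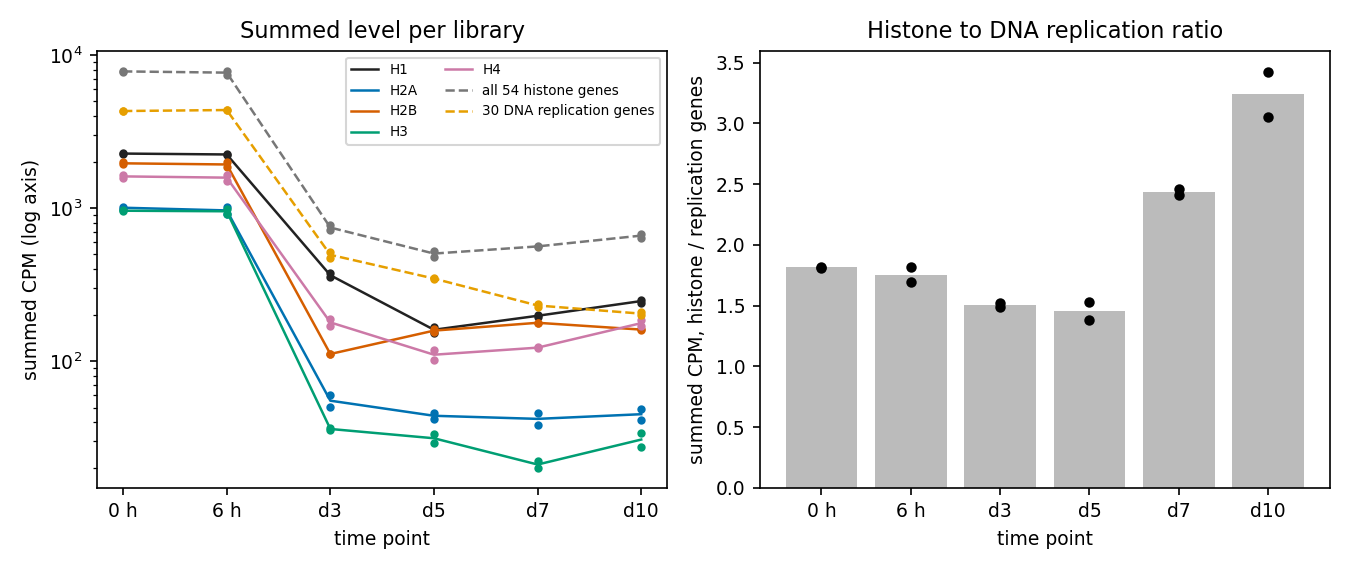
Left, summed CPM (log axis) of the histone genes by class, of all 54, and of 30 DNA replication genes at each time point, with a point per library and a line through the means. Right, ratio of the histone sum to the replication sum, with bars at the mean and a point per library. The ratio is lowest at d5, with a mean of 1.46, and highest at d10, with a mean of 3.24.

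By class sum, H3 kept the smallest share of its 0 h level at d3 and H1 the largest. The order differed for the median gene, since a few abundant genes weigh on the sums. The median log2 fold change at d3 was -3.53 for H4, -4.34 for H3, -4.44 for H1, -5.01 for H2A and -5.02 for H2B genes. The summed H3 level went from 964 ± 9.34 CPM at 0 h to 36.2 ± 1.06 at d3 (3.76%) and 30.9 ± 4.47 at d10 (3.20%). H2A went from 1008 ± 16.7 to 55.4 ± 6.77 (5.49%) and 45.2 ± 5.24 CPM (4.48%), and H2B from 1966 ± 41.5 to 112 ± 0.951 (5.69%) and 161 ± 1.80 CPM (8.21%). H4 went from 1615 ± 60.9 to 180 ± 14.8 (11.1%) and 178 ± 10.3 CPM (11.0%), and H1 from 2277 ± 36.3 to 365 ± 15.2 and 248 ± 7.58 CPM (6.23-fold and 9.19-fold below 0 h). The mix of histone mRNAs therefore shifted: H1 genes gave 29.1% of the histone sum at 0 h, 48.8% at d3 and 37.4% at d10, whereas H3 genes gave 12.3%, 4.85% and 4.65%.

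At 6 h, no histone gene was called by edgeR's quasi-likelihood test, where 0.746% of all genes tested were called in either direction. The smallest adjusted p was 0.814, 1 of the 54 genes had an unadjusted p below 0.05, and DESeq2 called 0. The median log2 fold change was -0.03 over the histone genes and 0.00 over all genes, and the single values ran from -0.59 to 0.58.

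Between 0 h and d3, 51 of the 54 histone genes were called lower and 0 higher by edgeR's quasi-likelihood test, and 0 were higher at an unadjusted p below 0.05 or by DESeq2. Over all genes tested, 35.0% were called lower and 33.1% higher. The median log2 fold change was -4.20, an 18.3-fold fall, against 0.00 over all genes. All 5 H1 and all 11 H4 genes were called lower, as were 13 of 14 H2A, 13 of 14 H2B and 9 of 10 H3 genes. The 3 without a call were H2ac7, H3c4 and H2bc21.

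From 0 h to d10, all 54 genes were called, 51 lower and the same 3, H2ac7, H3c4 and H2bc21, higher. For H2ac7 and H3c4 the rule on counts was met only at later times, so their calls are no independent support for a rise. Over all genes tested, 82.7% were called, 39.9% lower and 42.8% higher. The median log2 fold change was -5.07 over the histone genes and 0.06 over all genes. At d10, 35 genes stood below 5% of their 0 h mean, 14 between 5% and 25%, and 5 at 25% or more. Those 5 were H1f2, H2bc4 and the 3 that were higher. The joint test for any difference between time points called 54 of 54, where it called 94.7% of all genes.

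**Figure D2:**
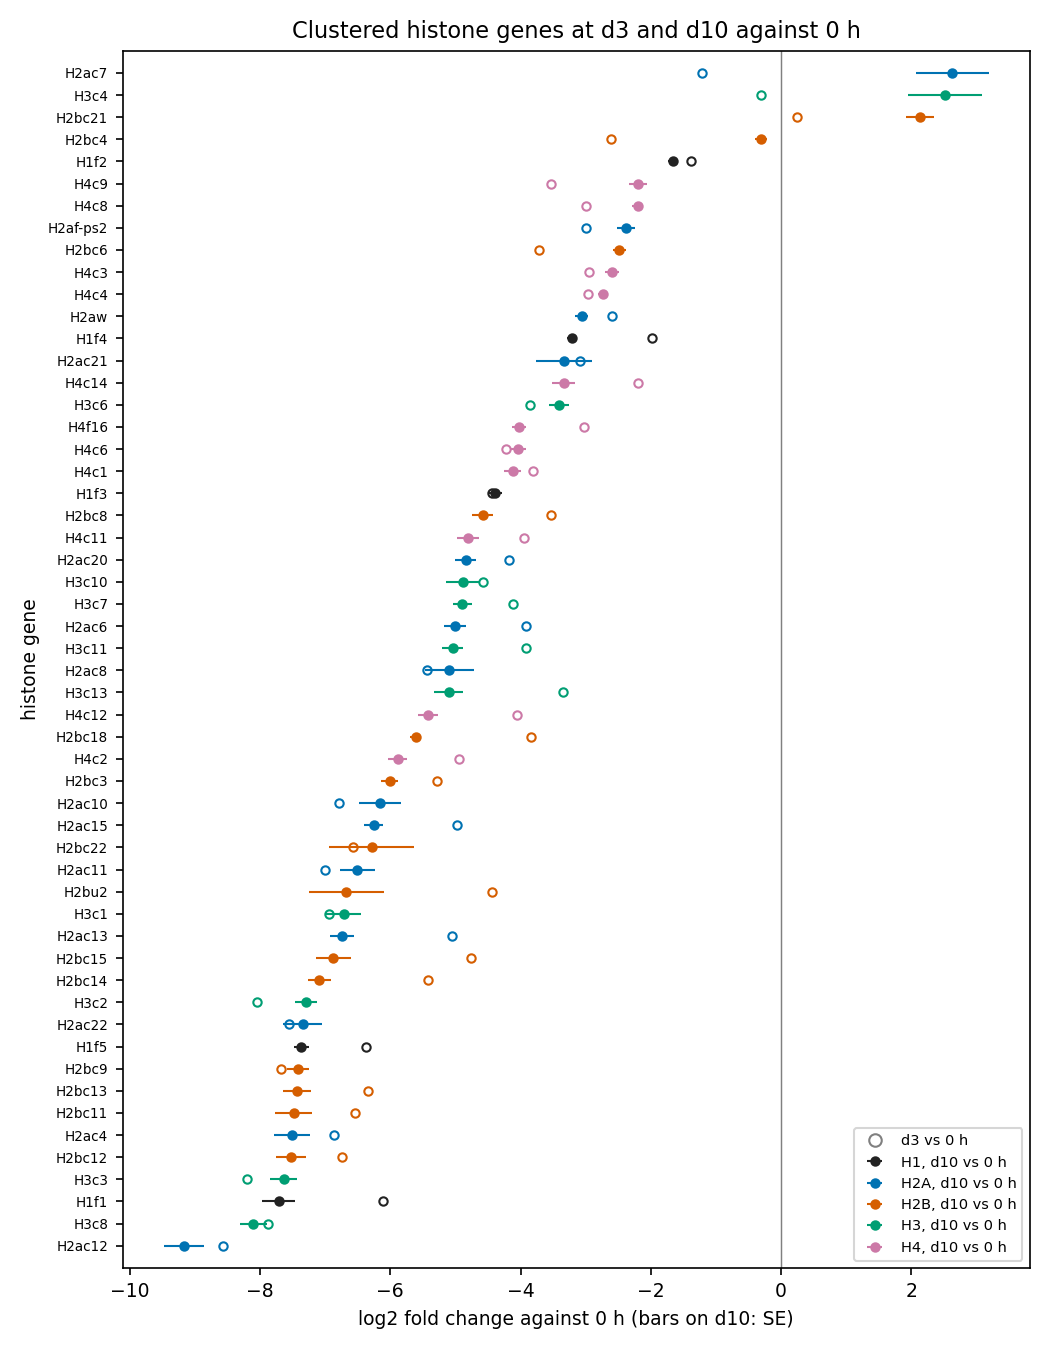
Log2 fold change of each of the 54 histone genes against 0 h, at d10 (filled points with SE bars) and d3 (open points), coloured by histone class and ordered by the value at d10. Values at d10 run from -9.17 for H2ac12 to 2.62 for H2ac7, and H2ac7, H3c4 and H2bc21 lie to the right of 0.

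H2bc18 (chr3:96269700-96270192, GRCm38) had the highest mean level. This H2B gene stood at 827 and 871 CPM at 0 h, 849.5 and 840.2 at 6 h, 57.2 and 61.3 at d3, 26.1 and 26.0 at d5, 17.8 and 18.1 at d7, and 17.6 and 17.2 at d10. It was called lower from 0 h to d3, from d3 to d5 and from d5 to d7, and lay at 2.05% of its 0 h mean at d10 (log2 fold change -5.61, SE 0.08, adjusted p 3.63e-18). Of its annotated transcript, 53.6% was shared with the predicted gene Gm42743, and reads of the 2 annotations cannot be told apart there.

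The linker histone genes parted from each other. H1f5 (chr13:21779832-21780625), with 531 and 559 CPM at 0 h and 540.1 and 554 at 6 h, dropped to 7.24 and 5.85 at d3, 9.76 and 8.53 at d5, 1.87 and 2.28 at d7, and 3.05 and 3.52 at d10. H1f2 (chr13:23738807-23739531) began at a like level, 478 and 488 CPM at 0 h and 493 and 466 at 6 h, and kept 176 and 194 at d3, 86.2 and 77.7 at d5, 132 and 132 at d7, and 156 and 148 at d10. At d10 H1f5 stood at 0.599% and H1f2 at 31.5% of the 0 h mean. Their log2 fold changes at d10 were -7.37 (SE 0.12) and -1.66 (SE 0.08).

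H1f4 and H1f3 lay between these. H1f4 (chr13:23621777-23622558) was at 575 and 567 CPM at 0 h, 551 and 572 at 6 h, 140.4 and 148 at d3, 50.3 and 51.7 at d5, 48.1 and 51.3 at d7, and 63.3 and 60.3 at d10. H1f3 (chr13:23555032-23555807) was at 622 and 643 CPM at 0 h, 628 and 593 at 6 h, 29.98 and 28.4 at d3, 20.6 and 15.8 at d5, 13.5 and 14.9 at d7, and 30.3 and 30.2 at d10. Their log2 fold changes at d10 were -3.21 (SE 0.07) and -4.39 (SE 0.10). H1f3 was called higher at d10 than at d7, by 1.09 on the log2 scale (adjusted p 1.86e-06). H1f2 alone made up 6.17% ± 0.0523 of the histone sum at 0 h and 23.0% ± 0.139 at d10. Part of the GENCODE mRNA of H1f4 is annotated in transcripts of H2bc6 as well, with 23.8% of its 50-base stretches shared. This part lies beyond the RefSeq span of H1f4, whose 782 bases equal the deposited length. The RefSeq spans of the 2 genes do not overlap.

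H4c4 and H4f16 were the H4 genes of highest mean level over all libraries. At d10 H4c8, at 38.4 and 35.7 CPM, and H4c3, at 26.6 and 25.6, lay above H4f16. H4c4 (chr13:23581568-23581969) was at 428 and 395 CPM at 0 h, 412 and 391 at 6 h, 52.0 and 53.7 at d3, 33.4 and 30.1 at d5, 37.6 and 35.1 at d7, and 64.8 and 59.0 at d10. H4f16 (chr6:136803993-136804431) was at 279 and 261 CPM at 0 h, 279.9 and 241 at 6 h, 30.9 and 35.5 at d3, 17.8 and 17.6 at d5, 13.2 and 14.6 at d7, and 18.2 and 15.2 at d10. Both were lower at d10 than at 0 h, by 2.73 (SE 0.08) and 4.02 (SE 0.11) on the log2 scale. Between d7 and d10 H4c4 was called higher (log2 fold change 0.77, adjusted p 3.86e-06), while H4f16 had 0.26 (adjusted p 0.139).

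Per length of gene, the order of levels changed. At 0 h H2bc18 led with 1722 CPM per kb of deposited gene length, followed by H4c4 (1119), H1f3 (815), H1f4 (729.7), H1f5 (687) and H1f2 (666). At d10 H1f2 led with 210.1 CPM per kb, followed by H4c4 (168), H2bc4 (136), H4c8 (85.2), H1f4 (79.0) and H4c3 (69.6), and H2bc18 stood at 35.3. For 41 of the 54 genes the deposited length equalled the RefSeq span, which for H1f2 stops at the stem-loop although GENCODE continues its mRNA for 840 bases beyond it.

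The 4 steepest called falls at d10 were in H2ac12, H3c8, H1f1 and H3c3. Counts of H2ac12 (chr13:22035122-22035643), an H2A gene, were 738 and 811 at 0 h and 829 and 868 at 6 h, then 3 and 1 at d3, 8 and 6 at d5, 0 and 3 at d7, and 1 and 1 at d10. The ratio of its 0 h to its d10 level was 629.6, with a 95% counting interval of 174 to 5203 that covers counting error only. H3c8 (chr13:23535418-23535909), an H3 gene, went from 122 and 109 CPM at 0 h and 117 and 103 at 6 h to 0.635 and 0.329 at d3, 1.24 and 1.25 at d5, 0.554 and 0.370 at d7, and 0.627 and 0.230 at d10. All 8 libraries from d3 on lay far below those of 0 h and 6 h in both genes.

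H3c3 (chr13:23745042-23745521) went from 112 and 121 CPM at 0 h and 114 and 107 at 6 h to 0.572 and 0.197 at d3, 2.18 and 1.37 at d5, 0.485 and 0.617 at d7, and 0.448 and 0.689 at d10. H1f1 (chr13:23763668-23764412) went from 44.5 and 45.6 CPM at 0 h and 47.3 and 47.0 at 6 h to 0.889 and 0.395 at d3, 0.559 and 0.656 at d5, 0.415 and 0.556 at d7, and 0.0896 and 0.306 at d10. Their log2 fold changes at d10 were -7.64 (SE 0.20) and -7.71 (SE 0.26), and that of H3c8 was -8.10 (SE 0.21). In H3c3 and H3c8 both d5 libraries lay above all 4 of d3 and d7.

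The 3 genes that were higher at d10 began at low levels. H2bc21 (chr3:96221072-96223738), older symbol Hist2h2be, was at 2.79 and 2.72 CPM at 0 h, 1.69 and 1.95 at 6 h, 4.00 and 2.50 at d3, 8.83 and 7.82 at d5, 12.1 and 10.2 at d7, and 11.6 and 12.6 at d10. All 6 libraries from d5 on lay above all earlier ones. The log2 fold change at d10 was 2.13 (SE 0.21, adjusted p 5.89e-08), and the largest step was from d3 to d5 (log2 fold change 1.35, adjusted p 2.24e-05).

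H2ac7 and H3c4 had few reads throughout. H2ac7 counts were 3 and 4 at 0 h, 4 and 8 at 6 h, 3 and 0 at d3, 9 and 7 at d5, 16 and 21 at d7, and 19 and 17 at d10. Those of H3c4, the only gene with its highest mean at d7, were 2 and 4 at 0 h, 4 and 6 at 6 h, 2 and 3 at d3, 12 and 21 at d5, 25 and 26 at d7, and 10 and 19 at d10. In CPM, H2ac7 rose from 0.234 ± 0.0191 at 0 h to 1.502 ± 0.283 at d10 (log2 fold change 2.62, SE 0.56, adjusted p 0.000373) and H3c4 from 0.197 ± 0.0710 to 1.18 ± 0.395 (log2 fold change 2.52, SE 0.57, adjusted p 0.000603). In both genes every library of d7 and d10 lay above those of 0 h. A filter at a mean of 1 CPM left both untested.

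H2ac7 and H3c4 are direct neighbours on chromosome 13. H2ac7 lies at chr13:23574381-23574915 and H3c4 at chr13:23575763-23576266, both on the plus strand and 847 bases apart. The clustered genes on either side moved the other way. H2bc8, upstream, had a log2 fold change of -4.58 at d10, and H4c4, 5301 bases downstream of H3c4, had -2.73. H2bc7, the divergent partner of H2ac7, had 37 counts over all libraries and was not among the genes kept. Of the transcript of H2ac7, 67.1% was shared with any other gene and 59.5% with H2ac12, which fell. In turn, 87.4% of H2ac12 was shared with H2ac7. Of H3c4, 24.8% was shared with any other gene and 21.2% with H3c2.

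H2bc4 (chr13:23684199-23692480), older symbol Hist1h2bc, fell and then returned to near its starting level. It was at 134 and 126 CPM at 0 h, 138 and 112 at 6 h, 22.4 and 19.9 at d3, 94.7 and 91.9 at d5, 123 and 123 at d7, and 106 and 104 at d10. Both d3 libraries lay below all others, and the d7 libraries lay within the range of 6 h. It was lower at d3 by 2.62 on the log2 scale (SE 0.10, adjusted p 5.35e-13), rose from d3 to d5 by 2.14 (adjusted p 7.54e-12), and was lower at d10 than at 0 h by 0.31 (SE 0.09, adjusted p 0.00404). From 1.66% ± 0.0859 of the histone sum at 0 h, H2bc4 came to 21.8% ± 0.311 at d7 and 15.9% ± 0.427 at d10. Of its transcript 30.1% was shared with any other gene and 23.1% with H2bc8, which stood at 4.21 and 3.14 CPM at d10.

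**Figure D3:**
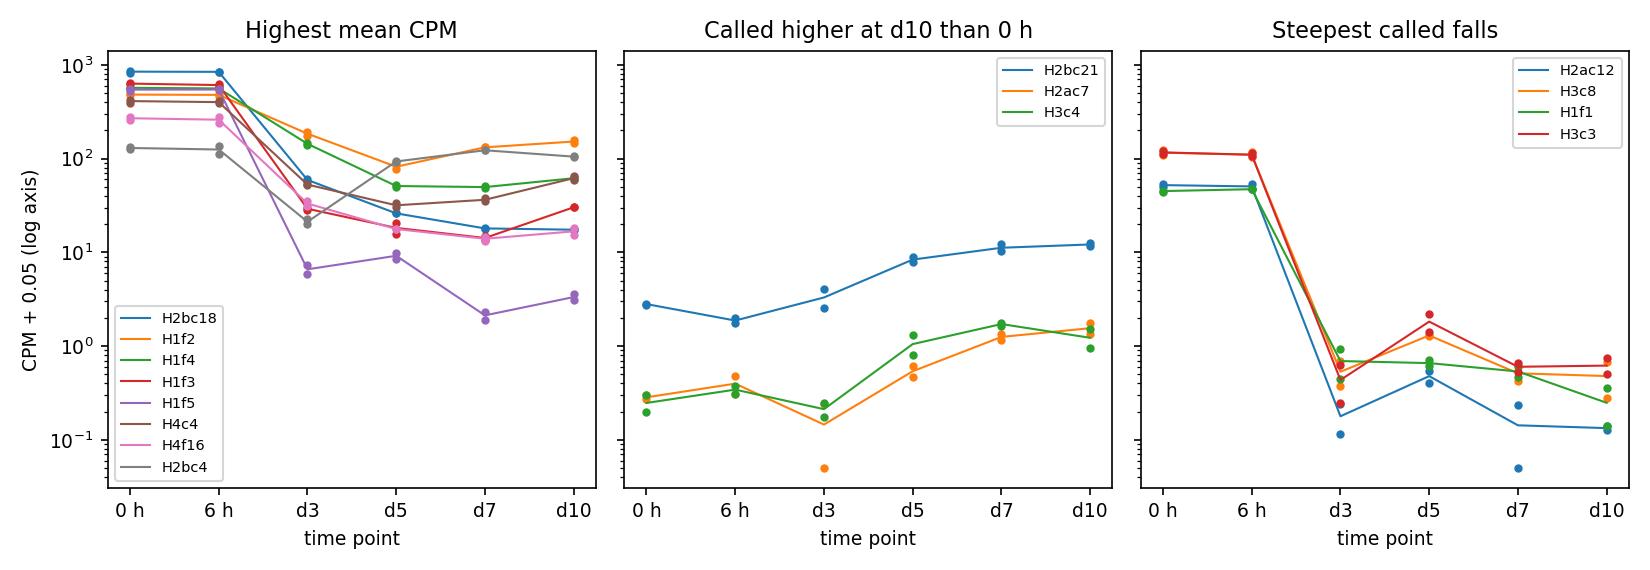
CPM plus 0.05 (log axis) by time point for the 8 histone genes of highest mean level, the 3 called higher at d10 than at 0 h and the 4 with the steepest called falls, with a point per library and a line through the means. H2bc4 is the gene of the left panel that returns towards its 0 h level after d3, from a mean of 21.2 to 123 CPM at d7.

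The course after d3 differed between genes. From d3 to d5, 12 histone genes were called higher and 20 lower, where 34.0% and 31.0% of all genes were. The 12 were H1f5, H2ac7, H2ac12, H2bc4, H2bc6, H2bc9, H2bc21, H3c1, H3c2, H3c3, H3c4 and H3c8, so that 5 of 10 H3 genes and 0 of 11 H4 genes were called higher, and 3 H3 and 8 H4 genes lower. Several of the 12 still stood at low levels: H3c2, for example, went from 0.699 and 0.526 CPM at d3 to 1.86 and 2.03 at d5, against 160 and 167 at 0 h.

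From d5 to d7, 7 were called higher and 25 lower, where 19.0% and 18.8% of all genes were, with a median log2 fold change of -0.55 against -0.01 over all genes. The 7 were H1f2, H2ac7, H2af-ps2, H2bc4, H2bc6, H4c8 and H4c9. Without replicate 1 of d7 the number called lower was 13, and without replicate 1 of d5 it was 16.

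From d7 to d10, 10 were called higher and 0 lower, where 15.1% and 13.2% of all genes were. By edgeR's quasi-likelihood test 1 gene had an unadjusted p below 0.05 and a lower level, and DESeq2 called 0 lower. The 10 were H1f3, H1f4, H1f5, H3c6, H3c7, H4c1, H4c3, H4c4, H4c6 and H4c11, thus 3 of 5 H1, 2 of 10 H3 and 5 of 11 H4 genes and no H2A or H2B gene. Many H2A and H2B genes had too few counts for small changes to be called. H2bc13, for example, had 6 and 17 at d7 and 6 and 6 at d10, though H2bc4 had 1774 and 1992, then 1188 and 1356. The part of depth in this class difference was not tested. Without replicate 1 of d10 the number called higher was 6.

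Many H2A and H2B genes stand head to head and share a promoter region. In 8 such pairs, with 164 to 249 bases between the gene starts, both genes were kept. In 4 pairs the log2 fold changes at d10 differed by less than 1, for instance -6.75 for H2ac13 and -7.43 for H2bc13. The widest gaps were in H2ac20 and H2bc21, with -4.84 and 2.13, and in H2ac6 and H2bc4, with -5.01 and -0.31. H2ac20 (chr3:96220413-96220880) was at 146 and 135 CPM at 0 h and at 5.91 and 3.98 at d10, and H2ac6 was at 64.9 and 73.6 CPM and at 1.88 and 2.37.

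**Figure D4:**
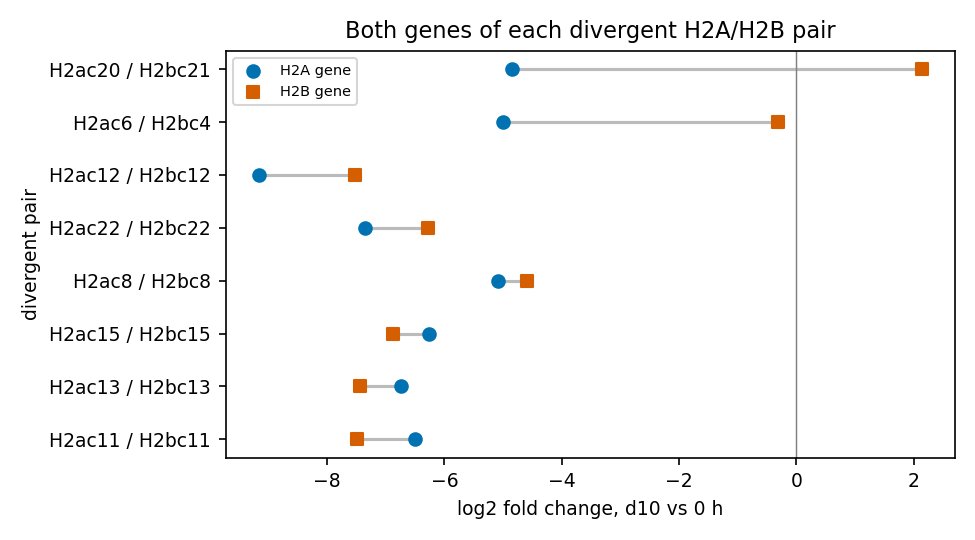
Log2 fold change at d10 against 0 h for the H2A gene (circles) and the H2B gene (squares) of 8 divergent pairs, joined by a line. In the pairs of H2bc21 and H2bc4 the H2B gene lies 6.98 and 4.70 above its H2A partner.

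A stretch that covers the region between the genes is shown for these 2 diverging pairs and for H2ac12 and H2bc12, which fell together (-9.17 and -7.53). The starts are 192 (H2ac20), 240 (H2ac6) and 178 (H2ac12) bases from those of the partners, so each stretch also runs into both genes. Each sequence is the RefSeq promoter of the H2A gene on GRCm38.p6, from 250 bases before to 50 after its start, on the minus strand and read towards the H2A gene. Capitals mark matches on either strand to the octamer ATTTGCAT, TATAAA and CCAAT.
H2ac20: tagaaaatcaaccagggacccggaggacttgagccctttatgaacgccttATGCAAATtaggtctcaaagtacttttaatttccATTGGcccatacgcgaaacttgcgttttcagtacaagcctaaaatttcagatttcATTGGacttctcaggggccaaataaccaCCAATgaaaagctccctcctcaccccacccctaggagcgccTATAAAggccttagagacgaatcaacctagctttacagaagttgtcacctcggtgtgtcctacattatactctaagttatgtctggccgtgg
H2ac6: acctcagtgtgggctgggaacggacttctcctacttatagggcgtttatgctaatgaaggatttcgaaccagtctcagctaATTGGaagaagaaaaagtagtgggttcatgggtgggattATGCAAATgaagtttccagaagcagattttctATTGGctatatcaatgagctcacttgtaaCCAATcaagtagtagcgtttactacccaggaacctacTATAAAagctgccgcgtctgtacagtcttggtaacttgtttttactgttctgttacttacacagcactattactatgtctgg
H2ac12: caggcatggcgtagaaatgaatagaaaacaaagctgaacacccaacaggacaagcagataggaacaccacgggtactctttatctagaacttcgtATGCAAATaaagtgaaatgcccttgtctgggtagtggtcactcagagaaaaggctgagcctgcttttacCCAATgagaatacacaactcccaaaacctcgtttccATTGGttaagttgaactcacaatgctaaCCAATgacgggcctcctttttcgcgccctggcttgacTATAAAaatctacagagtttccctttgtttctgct
They span chr3:96220831-96221130, chr13:23683910-23684209 and chr13:22035594-22035893. Each held 1 octamer, 1 TATAAA and 3 CCAAT matches. The octamer match of H2ac20 lies just inside the RefSeq span of H2bc21, which starts at chr3:96221072, and not between the 2 spans. Both genes fell in the other kept pairs as well. Of their H2A promoters, that of H2ac8 held 1 octamer, and those of H2ac11, H2ac13, H2ac15 and H2ac22 held 0. Whether these matches bear on how a pair moved was not tested.

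A promoter was given for 48 of the 54 genes. The octamer, bound by OCT1 in H2B promoters, was in 12 of the 48, against 1.93% of 26977 promoters of other genes. It was in 6 of 13 H2A and 6 of 12 H2B promoters and in 0 of the 5 H1, 8 H3 and 10 H4 promoters. Promoters of head-to-head genes overlap and are not independent, so a match can be counted for both genes. The octamer of H2ac12 and H2bc12 is the same stretch, as is that of H2ac8 and H2bc8. H2bc21 and H2bc4, the partners of H2ac20 and H2ac6, had no promoter given. TATAAA was in 60.4% against 15.6%, and CCAAT in 85.4% against 41.0%, with 3 of 10 H4 promoters the lowest class. A match is a description of letters and not a site.

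Grouped by the annotated mRNA end, genes whose mRNA ends within 100 bases of the stem-loop (16 genes) had a median log2 fold change of -6.61 at d10. Those whose annotated mRNA continues for 100 bases or more beyond it (20 genes) had a median of -3.72, and the 15 with no match and fewer than 100 annotated bases after the stop codon -6.26. The 4 genes with 30 or more bases after the stop codon and no match were H1f1 (-7.71), H3c13 (-5.11), H2bc4 (-0.31) and H2bc21 (2.13). H2ac7 and H3c4 were the exceptions with a stem-loop and a rise, the former ending within 100 bases and the latter continuing for 752. These medians are descriptions, and the groups also differ in histone class and in shared sequence: the 22 genes with 50% or more shared sequence had a median of -6.38, and the other 32 genes -4.25. The part of class and shared sequence in the gap between mRNA ends was not tested.

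**Figure D5:**
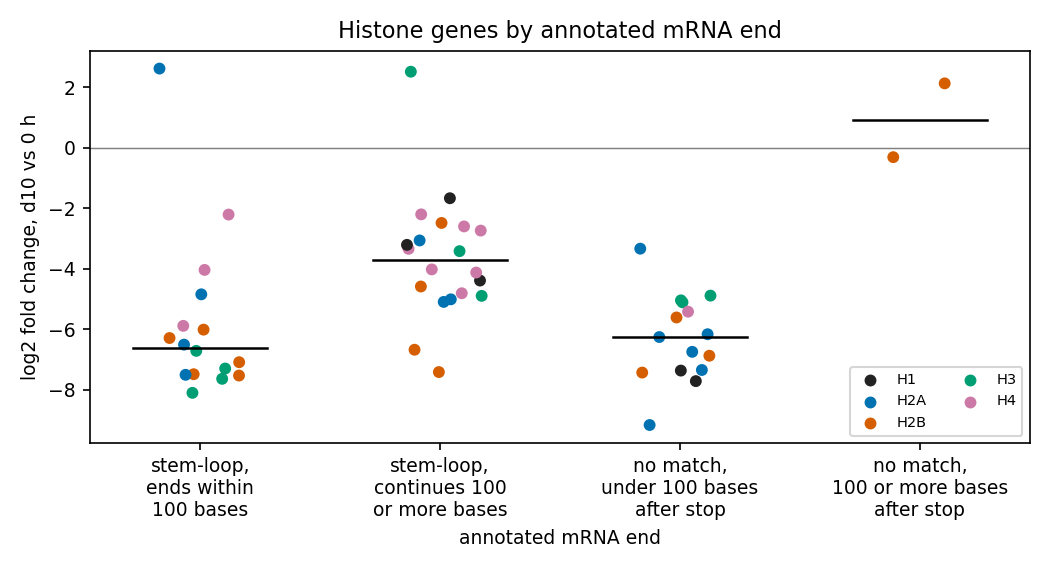
Log2 fold change at d10 against 0 h for 53 histone genes by annotated mRNA end, with a point per gene coloured by class and a bar at the median. The medians are -6.61, -3.72 and -6.26 for the 3 groups from the left, and the 2 genes on the right, H2bc4 and H2bc21, lie at -0.31 and 2.13.

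A list of 24 genes for the making and processing of histone mRNA also holds cyclin genes and general RNA factors such as Snrpb and Upf1. Of the 24 genes, 22 were called lower and 1 higher at d10, where 39.9% and 42.8% of all genes were. Their median log2 fold change was -1.26, and that of the histone genes -5.07. Slbp, the stem-loop binding protein, stood at 73.1 CPM at 0 h, 25.8 at d3 and 29.3 at d10 (log2 fold change at d10 -1.32, SE 0.09). Npat, the transcriptional activator of the clusters, stood at 97.1, 86.9 and 42.3 CPM (-1.20, SE 0.08), and Casp8ap2, also called FLASH and needed for processing with Lsm11, at 128, 75.1 and 41.8 CPM (-1.61, SE 0.09). Lsm11, a U7 snRNP subunit, had -0.60. Eri1, an exonuclease that trims the stem-loop end, had -2.11, cyclin E1 gene Ccne1 -2.74 and cyclin F gene Ccnf -5.12. Zfp473, a U7-associated zinc finger protein, was at 0.800 CPM at 0 h and 0.217 at d10. The 1 gene called higher was Lsm10, another U7 snRNP subunit (0.65). The 2 most abundant on the list, Snrpb and Cpsf2, had -1.75 and -1.21.

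Among variant histones, 11 genes were tested, 6 were called lower and 2 higher at d10, against 39.9% and 42.8% of all genes. H3f3a and H3f3b encode H3.3, which is deposited outside S phase. H3f3a rose from 55.2 to 79.6 CPM (log2 fold change 0.53, SE 0.08) and H3f3b was at 534 CPM at 0 h, 692 at d3 and 432 at d10 (-0.31, SE 0.07). H1f0, the linker variant of non-dividing cells, rose from 246 to 330.4 CPM (0.42, SE 0.07). Among those that fell were H2ax, which marks DNA breaks, from 258 to 9.05 CPM (-4.84), Cenpa, the centromeric H3, from 98.4 to 8.23 CPM (-3.59), H2az1 from 27.1 to 3.46 CPM (-2.98) and Macroh2a2 from 16.6 to 1.57 CPM (-3.39). At d10 the summed level of the 11 variant genes was 1003 to 1032 CPM against 642 to 684 CPM for the 54 clustered genes, whereas at 0 h it was 1466 to 1487 against 7799.8 to 7860.5.

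Of 20 histone chaperones, 15 were called lower and 2 higher at d10, with a median of -1.70, again against 39.9% and 42.8% of all genes. The chromatin assembly factor genes Chaf1b and Chaf1a, which place histones behind the replication fork, had -6.69 and -5.22, Asf1b -2.57, the soluble histone carrier Nasp -2.91 and Hirip3 -3.46. The 2 most abundant, Supt16 of the FACT complex and Rbbp4, had -1.71 and -0.78. The 2 called higher were Nap1l4 (0.52) and Ubn1 (0.22). All 30 DNA replication genes were called lower, with a median of -4.27, among them Mcm5 (-7.09), Uhrf1 (-7.04), Tk1 (-6.95), Mcm6 (-6.32), Rrm1 (-4.30) and the sliding clamp gene Pcna (-2.74).

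The labels name a library kit for total RNA and elsewhere call the RNA poly-A+, which bears on mRNAs without a poly(A) tail. The RNAs Rpph1 and Rmrp, which carry none, were abundant: Rpph1 was at 8739 CPM at 0 h and 9500.0 at d10, and Rmrp at 3792 and 3237. Their log2 fold changes at d10 were 0.12 (adjusted p 0.239) and -0.23 (adjusted p 0.386), and the summed level of 7 such RNAs ran from 9459 to 15524 CPM over the 12 libraries. Of the 6 tested, 2 were called higher at d10, Scarna2 (0.71) and Rnu12 (2.38, at 0.301 CPM at 0 h), and 1 lower, Terc (-2.55). Over all genes, 42.8% were called higher and 39.9% lower. At d3 3 were called higher than at 0 h, against 33.1% of all genes, and from d3 to d5 5 were called lower, against 31.0%. The part of RNA selection in the histone values was not tested.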

How the data were processed

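The deposited values were counts per gene for 12 libraries, keyed by Entrez gene identifier with a gene length. The submitters' processing notes name STAR and the build mm10. No aligner version, counting tool, annotation or treatment of reads matching several genes is given in the sources used here. Symbols came from RefSeq GRCm38.p6 (17045 identifiers), GENCODE (4) or neither (41).

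The model, in edgeR 4.0.16 under R 4.3.3, had 1 mean per time point over 12 libraries (6 residual degrees of freedom) and used TMM factors, filterByExpr (minimum count 10, minimum total 15; 12740 genes tested, 4350 removed), the robust quasi-likelihood F test, Benjamini-Hochberg adjustment and a prior count of 0.125. P-values measure spread between the libraries of the 2 experiments, pooled over time points. In simulated counts of 12740 genes, all given the same spread, 200 genes were changed at d10 alone. For d10 against 0 h, 60% of 1.5-fold, 88% of 2-fold and 98% of 4-fold changes were recovered, with 6 false among 179 calls. In the data 82.7% of genes were called in this comparison and spread differs by gene, so these rates need not hold there.

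The histone genes and gene lists were chosen with earlier results of these data known. Any kept histone gene could be named. Values per library are given for the 8 of highest mean, the 4 steepest called falls, up to 4 called rises and any gene peaking at d3, d5 or d7. The values of H2ac6, H2ac20, H2bc8 and H3c2, and the names Lsm10, Nap1l4 and Ubn1, were added after their values were seen. Values of H4c3 and H4c8 at d10 are likewise given outside this rule. From each list the 3 called genes of largest change at d10, the 2 most abundant and a fixed set of key genes were open to naming. Alternatives were other scaling factors and filters, DESeq2 1.42.0, a block for replicate number, fits of just the compared time points, and leaving out each library. A prior count of 1 was a further one.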

Additional observations from a re-analysis of the deposited data

How the results depend on the processing

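With 12 alternatives that each left out 1 library and 8 others, no called histone gene changed direction in any comparison. Among the 8, a prior count of 1 alters only the size of fold changes, so it could not change a call. At d10 against 0 h no gene changed its call wherever it was tested. Calls changed under some alternative in 1 gene from 0 h to d3 (H2ac7, called lower without replicate 1 of d3), 14 from d3 to d5, 24 from d5 to d7 and 11 from d7 to d10. The cause was not tested except where fewer genes or samples entered.

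From d5 to d7, the number called lower was 16 in a fit of only these 2 time points, which tested 47 of the genes. From d7 to d10, the number called lower was 1, H2bc4, with upper-quartile factors, with no filter, with a replicate block and with only the 2 time points compared. The number called higher at d10 against 0 h was 1 with a filter at a mean of 1 CPM, which removed H2ac7 and H3c4. The histone sum at d10 was 6.62% of 0 h when scaled by total counts without TMM factors, and 9.25% without H2bc18.

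Leaving out each library in turn gave 0 genes at 6 h in both directions, and from 0 h to d3 it gave 0 higher and 51 to 52 lower. From d3 to d5 it gave 8 to 14 higher and 16 to 20 lower, and from d5 to d7 6 to 9 higher and 13 to 25 lower. From d7 to d10 it gave 6 to 12 higher and 0 to 1 lower, and at d10 against 0 h 3 higher and 51 lower. The joint test gave 54 throughout, and the sum at d10 ran from 8.20% to 8.73% of 0 h.

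Replicate numbers were shared by the time points, but the labels give no pairing beyond the number. Over 15 pairs of time points the correlation of same-numbered libraries' deviations ran from -0.0913 to 0.193 (median 0.0320) and passed 0.1 in 1, so the numbers were not taken as pairs. With a replicate block the counts called were 51 lower and 3 higher at d10 against 0 h, 24 lower from d5 to d7 and 11 higher from d7 to d10. The other counts were as without the block, apart from H2bc4 called lower from d7 to d10.

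Depth limits the genes with few counts at some time, among them H2ac7, H3c4, H2ac11, H2ac12, H2bc22 and H2bu2. H2bc22 had a ratio of 0 h to d10 of 94.3 (95% counting interval 16.6 to 3756) and H2bu2 one of 122 (21.6 to 4848), and H2ac11 had a ratio of 0 h to d7 of 390.2 (133 to 1895).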
